A study of Mus musculus with 8 samples.

Results

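Sites of m6A-eCLIP signal that lie in noncoding RNA genes were described in αTC1-6 cells. They were taken from a table of 33774 sites by position alone: a site was kept when it lay on a nuclear chromosome, inside the RefSeq span of at least 1 gene, with no protein-coding gene over it. This left 437 sites (1.29% of the table) in 197 genes of the 6537 genes with a site. All 437 were 1 base long. By RefSeq class, 324 sites lay in 137 genes for long noncoding RNAs (lncRNA), 106 in 57 pseudogenes and 7 in 3 genes of the class misc_RNA. The 106 join 63 sites of the RefSeq class pseudogene and 43 of the class transcribed_pseudogene. The rule used no count, but it was chosen with earlier results of these data known.

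αTC1-6 is an established mouse cell line of pancreatic alpha cells, which make glucagon. The cells carried either control siRNA with a scrambled sequence (SCR) or siRNA that targets Mettl14 (M14KD). From both, libraries were made of the RNA bound by an anti-m6A antibody (IP) and of RNA without that selection (Input), 2 for each of these 4 groups. The numbers 1 and 2 mark the SCR replicates and 3 and 4 the M14KD replicates, in IP as in Input. All libraries came from 1 cell line, and the labels do not say that replicates were separate cultures, so the spread that p-values rest on may be technical. A knockdown lowers a transcript and does not delete the gene, and the labels give no time after the siRNA.

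N6-methyladenosine (m6A) is written on nuclear RNA by a complex in which Mettl3 carries the catalytic site and Mettl14 supports RNA binding, with adaptor proteins such as Wtap, Virma and Rbm15. It falls mostly on adenosines within short motifs of the GGAC type, and long noncoding RNAs such as Malat1, Neat1 and Xist are known carriers. Reader proteins in the nucleus, among them Ythdc1, bind the mark. Pseudogenes are copies of other genes that have lost their coding function. Reads from a pseudogene can match its parent gene, and how reads with several matches were placed is not given in the sources used here, so counts at pseudogene sites are uncertain.

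Genome sequence around most sites was not used here, but 7 of the 437 sites lay inside the RefSeq promoter window of their own gene (GRCm38.p6, the reference patch of the build mm10). The windows matched 116 of the 197 genes. The 7 stretches show what bases lie at and around the position listed for a site. Each has 30 bases on the gene's strand, 5′ to 3′, with the site's base in capitals, 20 bases before it and 9 after it. The strand on which the reads of a site lay is not given in the sources used here.
C130036L24Rik, chr1:86359576-86359605, plus strand: ttgggcccaggcggacgttgActggtcagt
3930402G23Rik, chr8:10928426-10928455, minus strand: ttgggataagacctcaaaggGgaatgtgtg
Snhg20, chr11:117076797-117076826, plus strand: gagctggttccgccggggagGagaactcgc
Lockd, chr6:134929112-134929141, plus strand: gcaggcgggaagcttcagttTgggtagaga
Gm34319, chr5:108434393-108434422, plus strand: ctgaggcggaagacagagaaTgaaagccgc
Malat1, chr19:5802659-5802688, minus strand: gctccgggctctgcgtcaggCattcaggca
Trmt61b, chr17:71598487-71598516, minus strand: ttgtctctagtatgtggaaaGgctcgggct

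The site base was A in C130036L24Rik, whose site was base 13 of the gene counted from its RefSeq start. It was G, T or C in the others. The letters GGAC, searched on both strands, were found in the stretch of C130036L24Rik and in no other of the 7, beside 18.96% of 32851 promoter stretches of the same length. Malat1's site was base 5 of the gene, 3930402G23Rik's base 23, Snhg20's base 35 and Lockd's base 41. Trmt61b's site was at -214, upstream of the start used for its promoter window. The C130036L24Rik site had Input counts of 5 and 6 in SCR and 6 and 6 in M14KD, with IP counts of 77 and 85 in SCR and 92 and 69 in M14KD. The Gm34319 site, base 13 of its gene, had Input counts of 15 and 18 in SCR and 17 and 19 in M14KD, with IP counts of 38 and 24 in SCR and 40 and 28 in M14KD. In the model described below, the log2 IP over Input ratio in SCR was 1.59 (SE 0.39, adjusted p = 0.000548, edgeR) at the first and -1.37 (SE 0.35, adjusted p = 0.000888) at the second. The C130036L24Rik site was thus higher in IP than a typical site of the table, and the Gm34319 site lower; with column totals as the scaling the second was at -0.65 and did not pass (adjusted p = 0.0781, edgeR).

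The noncoding sites were spread over 20 chromosomes, with 54 on chromosome 6 and 47 on chromosome 11. A single site was held by 114 of the 197 genes and 2 sites by 36, while 22 genes with 5 or more held 168 of the sites. A second noncoding site within 100 bases was found for 45.1% of them, and 72.6% of all sites in the table had a neighbour that near. Of the lncRNA sites, 269 lay in genes whose strand was known, with a median position 55.5% of the way along the gene; 59 lay in the first 20% and 89 in the last 20%. Exons were not used here, so a site could not be placed in an exon or intron, and the strand is that of the gene, not of the reads. The span of a protein-coding gene began less than 5000 bases from 161 of the sites, and within 1000 bases from 77.

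Of the noncoding RNAs on lists drawn up for this tissue and mark, few had a site of their own. Malat1, Neat1 and Tug1 did, of 10 abundant nuclear lncRNAs, and Snhg7, Snhg11, Snhg17 and Snhg20 did, of 20 hosts of small nucleolar RNAs. None of 9 imprinted noncoding RNAs and none of 14 small structured RNAs had one. The table lists chosen sites, so no site does not show that an RNA was absent.

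Library totals over all sites ran from 3438530 to 3637740 counts in Input and from 10207383 to 10918559 in IP. The median count at a noncoding site was 13 to 14 in the Input libraries and 81 to 87 in the IP libraries, against 31 to 34 and 162 to 177 over all sites, so noncoding sites were measured less precisely. Mettl14, the knockdown target, had Input counts of 64 and 44 in SCR and 32 and 22 in M14KD, and IP counts of 78 and 81 in SCR and 42 and 25 in M14KD. Both M14KD libraries were below both SCR libraries in each kind, and neither difference passed the adjusted threshold (adjusted p = 0.242 in Input and 0.156 in IP, edgeR). Of 13 alpha cell markers 11 had sites, and of 8 markers of other islet cells and 6 of cells outside the islet none did.

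The first comparison asked what part of each library lay at noncoding sites. The share tests for lncRNA and pseudogene sites were chosen after seeing the data, so their p-values are not those of a planned test. At lncRNA sites this share was 0.333% and 0.315% in the SCR Input libraries and 0.345% and 0.320% in the M14KD Input libraries. It was 0.514% and 0.472% in SCR IP and 0.537% and 0.491% in M14KD IP. Every IP library was above every Input library. The means were 0.328% ± 0.013 in Input and 0.504% ± 0.028 in IP (SD, n = 4), a difference with p = 0.0286 in a two-sided exact permutation test, the smallest p that 4 against 4 allows. The share was also higher in all 4 IP libraries when Neat1 was left out (0.288% against 0.413%, exact p = 0.0286) and over lncRNA sites at least 5000 bases from coding genes (0.243% against 0.347%, exact p = 0.0286). A share is a fraction of the library total. With column totals as the scaling, the median log2 IP over Input ratio of all sites in SCR was 0.77. On that scale 59.1% of all sites were higher in IP (edgeR, adjusted p under 0.05). A higher share in IP thus does not show a rise beyond that of a typical site.

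The summed share of pseudogene sites went the other way. Sites with many counts weigh most in such a share. With column totals as the scaling, 40 of 91 pseudogene sites in SCR were higher in IP and 26 lower (edgeR, adjusted p under 0.05). That stood beside 59.1% and 16.7% of all sites, and the pseudogene median log2 ratio was 0.48. The lower share thus does not show that most pseudogene sites were lower in IP. Their share of the Input libraries was 0.398% and 0.400% for SCR and 0.435% and 0.417% for M14KD. Of the IP libraries it was 0.305% and 0.310% for SCR and 0.344% and 0.317% for M14KD. Every IP library was below every Input library, with means of 0.413% ± 0.017 in Input and 0.319% ± 0.017 in IP (SD, n = 4; exact permutation p = 0.0286). Without Gm11223, the pseudogene with the most counts, the means were 0.319% and 0.251% with the same exact p. Gm4617, another pseudogene with many counts, was not left out. Its counts were 3213 and 3333 in SCR Input and 3632 and 3518 in M14KD Input. They were 2255 and 2074 in SCR IP and 2504 and 2373 in M14KD IP, though IP libraries held more counts in total. Whether the difference holds without both genes was not tested. Together the noncoding sites held 0.745% ± 0.028 of Input and 0.829% ± 0.042 of IP counts (SD, n = 4; exact permutation p = 0.0286). Without Neat1 the combined shares were 0.705% and 0.738% (exact p = 0.171). At sites at least 5000 bases from coding genes, Neat1 among them, they were 0.635% and 0.645% (exact p = 0.6), so the combined difference passed neither without Neat1 nor without the sites near coding genes. Adjusted over the 4 classes tested (all noncoding, lncRNA, pseudogene and misc_RNA) each p stayed 0.0286. The IP and Input library of a number move together, and with signs permuted within the 4 numbers p was 0.125 for each, the smallest that 4 pairs allow.

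**Figure D1:**
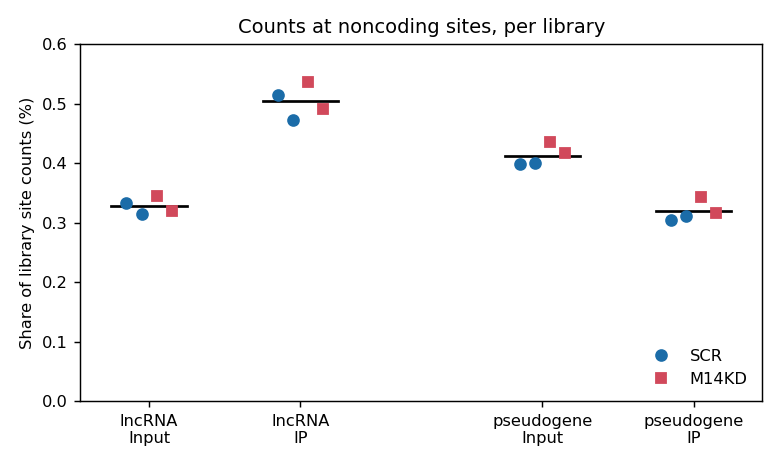
Share of each library's site counts (percent, y axis) that lay at lncRNA sites and at pseudogene sites, in Input and IP libraries. Points are single libraries, circles SCR and squares M14KD, and bars are the means of 4 libraries. For lncRNA sites all IP points lie above all Input points, and for pseudogene sites all lie below.

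Between genotypes these shares were close. The lncRNA share was 0.324% ± 0.013 in SCR and 0.333% ± 0.017 in M14KD Input, and 0.493% ± 0.029 and 0.514% ± 0.033 in IP (SD, n = 2), with overlapping libraries in both kinds. For the pseudogene share, given above by library, both M14KD libraries lay above both SCR libraries in each kind. With 2 libraries against 2 an exact permutation test cannot give a p under 0.333.

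The next comparison asked which noncoding RNAs were higher in IP than in Input. Ratios were fitted with edgeR's quasi-likelihood test over the whole table, with p adjusted by Benjamini-Hochberg over all features tested and a threshold of 0.05. A ratio of 0 on the log2 scale is that of the bulk of sites in the table, by edgeR's TMM scaling, and not equal counts. Counts were summed over the sites of a gene for values per gene.

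In SCR, 166 of the 197 noncoding genes passed the filter on low counts. The IP over Input ratio was higher in 58 of them, beside 35.2% of all 6382 genes tested, and lower in 39, beside 34.7%. The share that was higher was thus near that of all genes, and the share that was lower was smaller. The median SE of this ratio was 0.26 for noncoding genes against 0.15 over all genes, so the called shares do not compare like with like. Of 120 lncRNA genes 44 (36.7%) were higher and 18 (15%) lower, with a median log2 ratio of 0.33, and of 43 pseudogenes 13 (30.2%) were higher and 21 (48.8%) lower, with a median of -0.49. The median of all genes was 0.04. With column totals as the scaling, which moved the median of all sites to 0.77, the split was 100 higher (60.2%) and 19 lower (11.4%), beside 62.6% and 16.7% of all genes. It was 78 and 5 for lncRNA genes and 19 and 14 for pseudogenes. A gene with 0 Input counts in SCR, Gm13524, was among the lncRNA genes, and placing it lowest left their median at 0.32.

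**Figure D2:**
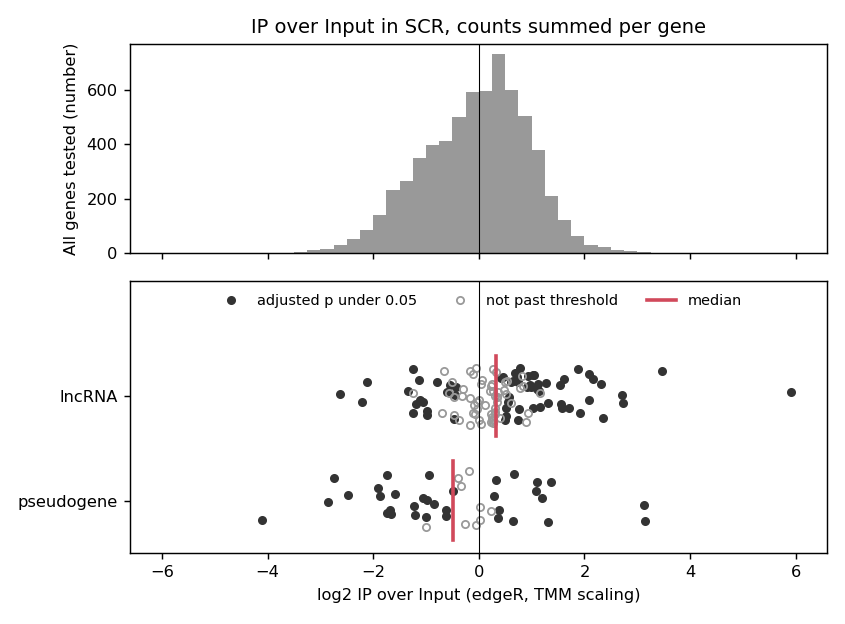
Log2 ratio of IP over Input in SCR (x axis, edgeR with TMM scaling), for all genes tested as a histogram (number of genes) and for each lncRNA gene and pseudogene tested as a point. Filled points had an adjusted p under 0.05, and vertical bars are the medians, 0.33 and -0.49; the 3 misc_RNA genes are not drawn, and the point farthest right is Gm13524, with 0 Input counts in both SCR libraries, whose place depends on the prior count of the fit.

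Per site, 399 of the 437 noncoding sites passed the filter. In SCR 130 were higher, beside 34% of the 33356 sites tested, and 104 lower, beside 33.4%. With column totals 233 (58.4%) were higher and 54 (13.5%) lower, beside 59.1% and 16.7% of all sites. For lncRNA sites the counts were 103 higher and 66 lower of 302, and for pseudogene sites 25 higher and 37 lower of 91; with column totals they were 188 and 28, and 40 and 26. Among lncRNA sites less than 5000 bases from a protein-coding gene, 57 were higher and 22 lower of 140 (median log2 ratio 0.39), and among those farther away 46 were higher and 44 lower of 162 (median 0.12). Whether reads of the neighbouring coding gene play a part was not tested. In the first, middle and last part of the gene, at equal lengths, the medians of lncRNA sites were 0.14, 0.34 and 0.21 in SCR. In M14KD they stood at 0.31, 0.23 and 0.09, so the order along the gene differed between the genotypes. That difference was not tested.

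In M14KD the ratio was higher in 51 noncoding genes, beside 35.4% of all genes, and lower in 43, beside 35.6%. It was higher at 133 noncoding sites, beside 33.8% of all sites, and lower at 109, beside 33.1%. With column totals the splits were 93 and 24 for genes, beside 61.4% and 17.1% of all genes, and 225 and 60 for sites, beside 58.6% and 16.9% of all sites. Leaving out an M14KD replicate lowered the higher calls: to 29 genes and 75 sites without replicate 3, and to 33 genes and 86 sites without replicate 4. The higher calls over all features fell too, to 27.4% of genes and 25.9% of sites without replicate 3 and to 27.2% and 25.9% without replicate 4. The 2 genotypes share no library, and 42 genes were higher in both, 35 lower in both and 0 higher in one and lower in the other. A call was made only in SCR for 20 genes and only in M14KD for 17. Over the 166 genes, which are not independent replicates, the ratios in SCR and M14KD had Pearson's r = 0.82 and Spearman's rho = 0.88. The same values over all genes were not computed, so this agreement is not shown to be particular to noncoding genes.

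Neat1 is the scaffold RNA of paraspeckles, nuclear bodies that also hold proteins such as Sfpq. Its gene lies at chr19:5824708-5845480, and its 12 sites lay between 1472 and 2847 bases from the end of the span with the higher coordinates. Summed over these sites, the Input level was 400.4 and 373.0 CPM in SCR and 438.5 and 391.7 in M14KD, where CPM is a count divided by the library's total over all sites and scaled up by a constant. The IP level was 882.4 and 795.7 CPM in SCR and 1052 and 904.9 in M14KD. All IP libraries were above all Input libraries. The log2 ratio was 0.42 (SE 0.09, adjusted p = 0.000568, edgeR) in SCR and 0.55 (SE 0.09, adjusted p = 5.2e-05) in M14KD.

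Within Neat1 the sites split into 2 stretches. From position 5842633 to 5843712 all 5 sites were lower in IP than the bulk of sites in SCR, with log2 ratios from -1.49 (SE 0.16) to -0.32 (SE 0.14). From 5843835 to 5844008 6 of 7 sites were higher, with a ratio of up to 1.26 (SE 0.13) at 5843993. At that last site the Input counts were 133, 105, 123 and 100 and the IP counts 1483, 1294, 1752 and 1428, for replicates 1 to 4. At 5843566, 427 bases away, the Input counts were 123, 109, 130 and 110 and the IP counts only 219, 191, 231 and 209. The Input counts of the 2 sites were thus alike while the IP counts were far apart. With column totals, which add about the same amount to every ratio, 8 of the 12 sites were higher and 3 lower; the ratios were then -0.75 at 5843566 and 1.98 at 5843993. In M14KD, with TMM, 7 sites were higher and 5 lower, and all 12 kept the sign they had in SCR.

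Malat1 is an abundant RNA of nuclear speckles with known m6A sites. Its gene lies on the minus strand at chr19:5795690-5802672. The Input level over its 9 sites was 239.2 and 161.6 CPM in SCR and 207.5 and 176.2 in M14KD, and the IP level 461.5 and 315.3 in SCR and 396.4 and 357.1 in M14KD. Replicate 1 was the highest library of each kind. The summed ratio did not pass the threshold in SCR (log2 ratio 0.26, SE 0.17, adjusted p = 0.165, edgeR), and it did with the replicate number as a block (0.26, adjusted p = 0.000512) and with column totals (0.98, adjusted p = 0.00011). Per site, 4 were higher and 2 lower. The ratio was -1.36 (SE 0.16) at 5801317 and 0.79 (SE 0.18) at 5801435, 118 bases away, and it reached 0.87 (SE 0.18) at 5801464. With column totals 7 of the 9 sites were higher and 1, at 5801317, lower (-0.64). The site at base 5 of the gene, whose stretch is printed above, had a ratio of 0.63 (SE 0.16, adjusted p = 0.000953).

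Tug1, a nuclear lncRNA at chr11:3639785-3648814 on the minus strand, had the most sites of any noncoding gene, 20. Its Input level was 102.6 and 72.6 CPM in SCR and 89.4 and 83.5 in M14KD, and its IP level 265.1 and 208.3 in SCR and 247.4 and 242.9 in M14KD. The log2 ratio was 0.74 (SE 0.14, adjusted p = 0.000159, edgeR) in SCR and 0.82 (SE 0.14, adjusted p = 6.77e-05) in M14KD. In SCR 12 of its 20 sites were higher and 0 lower, and the ratio reached 1.57 (SE 0.25) at 3645049.

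**Figure D3:**
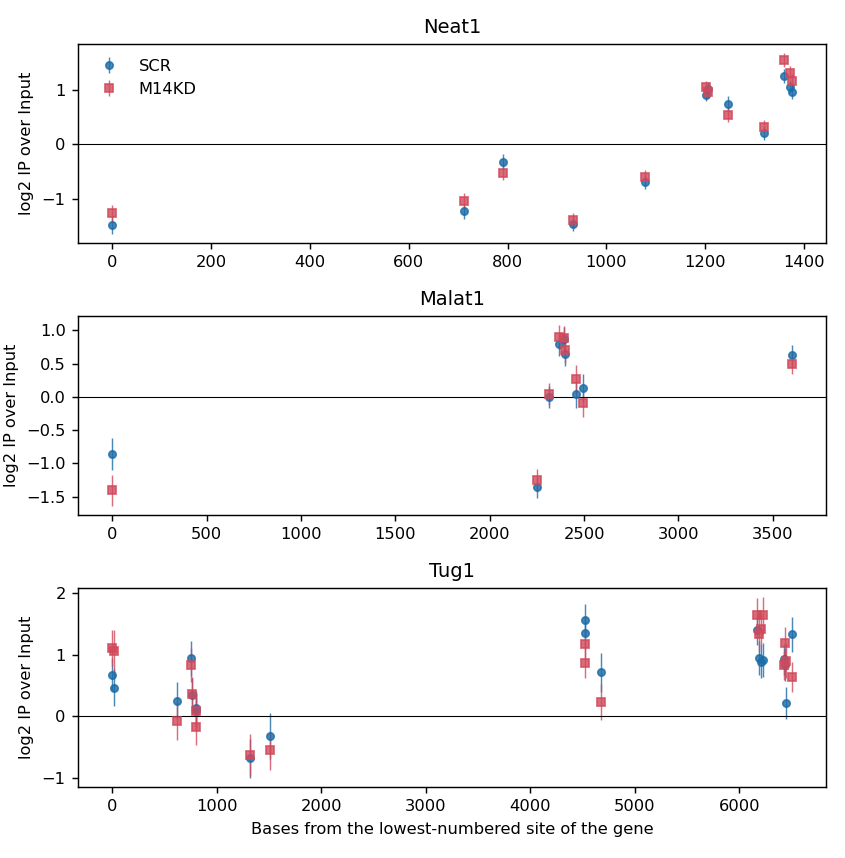
Log2 ratio of IP over Input (y axis, edgeR) at each site of Neat1, Malat1 and Tug1 against the distance in bases from the gene's lowest-numbered site (x axis), for SCR (circles) and M14KD (squares), with SE bars. Neat1 and Malat1 hold sites on both sides of 0 in both genotypes, and Tug1 has no site called lower.

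Other noncoding genes were split as well. Of 45 noncoding genes with 3 or more tested sites, 13 (28.9%) held both a higher and a lower site in SCR, 19 only higher, 11 only lower and 2 none of either. Over all 3829 genes with 3 or more tested sites 45.3% held both, with a median of 6 tested sites a gene against 4 for noncoding genes. With column totals 10 held both, 30 only higher and 5 only lower. The median range of ratios within a gene was 1.79 log2 units, against 1.99 over all such genes. Oip5os1 spanned 3.59 units, from -3.00 to 0.59, over 5 sites. The transcribed pseudogene Zfp862-ps (chr6:48504339-48534832) had 7 sites higher and 2 lower of 17 (11 and 0 with column totals), and a log2 ratio per gene of 0.67 (SE 0.11, adjusted p = 7.76e-05, edgeR). The lncRNA 3930402G23Rik (chr8:10924427-10928457) had 1 higher and 11 lower of 13 (4 and 6 with column totals), and Gm46220 (chr10:38059341-38063357) was lower at all 8 of its sites (5 with column totals). Their ratios per gene were -0.98 (SE 0.07) and -1.12 (SE 0.08). Lockd, an lncRNA near Cdkn1b, was lower at 4 of 5 sites, and the fifth, base 41 of the gene, had a ratio of -0.17 (adjusted p = 0.162, edgeR). With column totals that site was at 0.55 and 1 of the 5, at 134951484, was lower (-1.13).

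Other genes with many sites lay on both sides. 2610306M01Rik (log2 ratio 0.51), Ube2d-ps (0.60), 9330102E08Rik (0.58) and C630043F03Rik (0.54) were higher, Brip1os (-0.48) was lower and Gm32330 (0.01) did not pass the threshold. Without replicate 2, Ube2d-ps (0.38), 9330102E08Rik (0.49) and C630043F03Rik (0.40) lost the call. The value of Brip1os was 0.24 with column totals (adjusted p = 0.0688, edgeR). The 4 hosts of small nucleolar RNAs had ratios below 0: Snhg7 -1.07, Snhg17 -2.12 and Snhg20 -0.60, all called lower, and Snhg11 -0.48, which was not (adjusted p = 0.0938, edgeR, and 0.0474 with the replicate block). Snhg17 had Input counts of 10 or fewer, and its call and that of Snhg20 were lost without replicate 1 (-0.78 and -0.51). With column totals none of the 4 was called: Snhg7 was at -0.35, Snhg17 at -1.41, Snhg20 at 0.12 and Snhg11 at 0.24.

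Among the 84 noncoding genes with a mean Input count of at least 20, the highest ratio was that of 9030622O22Rik (chr2:147944459-148040513). Its SCR libraries had Input counts of 28 and 17 and IP counts of 426 and 369, and its M14KD libraries 50 and 31 in Input and 407 and 413 in IP. The log2 ratio in SCR was 1.88 (SE 0.23, adjusted p = 1.92e-06, edgeR). 5033430I15Rik (1.70, chr13:45965224-45966508), the transcribed pseudogene 5830417I10Rik (1.36), Gm13421 (1.31) and Gm7160 (1.26) followed. Their SE ran from 0.15 to 0.20, so neighbours in this order did not differ beyond their error. All 4 sites of 5033430I15Rik were higher, within a range of 0.49 log2 units.

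At the low end stood the pseudogene Gm4617 (chr3:124385509-124386676). Its Input level was 888.4 and 916.2 CPM in SCR and 1005 and 1023 in M14KD, and its IP level 206.5 and 196.1 in SCR and 237.2 and 232.5 in M14KD. Every IP library was thus well below every Input library, with a log2 ratio in SCR of -2.86 (SE 0.08, adjusted p = 1.06e-13, edgeR). The pseudogenes AK157302 (-2.74) and Gm7733 (-1.91) and the lncRNAs Gm13791 (-2.62) and Gm12841 (-2.22) were the other genes of lowest ratio. AK157302, Gm13791 and Gm12841 had 1 site each, with Input counts of 16 to 35.

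The knockdown was then compared with SCR within the IP libraries. Across 169 noncoding genes tested, 0 passed the adjusted threshold (edgeR), as was so for 0% of all 6385 genes, and 20 had an unadjusted p under 0.05, beside 14.1% of all genes. DESeq2 gave an adjusted p for 47 of them and called 1, Dynlt1-ps1, beside 45 called of 3491 over all genes. The median log2 fold change of M14KD over SCR was 0.07, against 0.01 for all genes. Of 122 lncRNA genes 73 had a value above 0, of 44 pseudogenes 33, and of all genes 3344.

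Per site, 1 of 404 noncoding sites passed, beside 0.255% of all sites that were higher in M14KD, and 0 were lower, beside 0.375%. An unadjusted p under 0.05 was found at 54 noncoding sites, beside 13.3% of all sites. The site that passed lay at chr6:135349743 in Dynlt1-ps1, a pseudogene at chr6:135349082-135349788 named for Dynlt1, a light chain of the dynein motor. The SCR libraries had IP counts of 529 and 540 there and the M14KD libraries 720 and 660, so both M14KD libraries were above both SCR libraries. DESeq2 called this site too (adjusted p = 0.0488), as 1 of 60 noncoding sites with an adjusted p, beside 117 of 7578 over all sites. In edgeR its log2 fold change was 0.44 (SE 0.09, adjusted p = 0.0283). The call was lost without replicate 3 (adjusted p = 0.436) and without replicate 4 (0.0768), and without replicate 1, 19 noncoding sites (4.63%) were called, 18 of them higher, beside 4.25% of all sites, so more calls were made across the whole table.

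The other site of Dynlt1-ps1, 44 bases away, had IP counts of 714 and 693 in SCR and 850 and 867 in M14KD (log2 fold change 0.36, adjusted p = 0.0544, edgeR). Over both sites the IP level was 113.8 and 116.6 CPM in SCR and 148.8 and 149.6 in M14KD, and the Input level 256.0 and 267.7 in SCR and 323.7 and 301.9 in M14KD. M14KD libraries were above SCR libraries in both kinds. The gene's log2 fold change was 0.39 (SE 0.08, adjusted p = 0.155) in IP and 0.27 (SE 0.09, adjusted p = 0.323) in Input, and its ratio of IP over Input was -1.88 in SCR. The change of that ratio between genotypes was 0.12 (SE 0.12, adjusted p = 1.0).

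**Figure D4:**
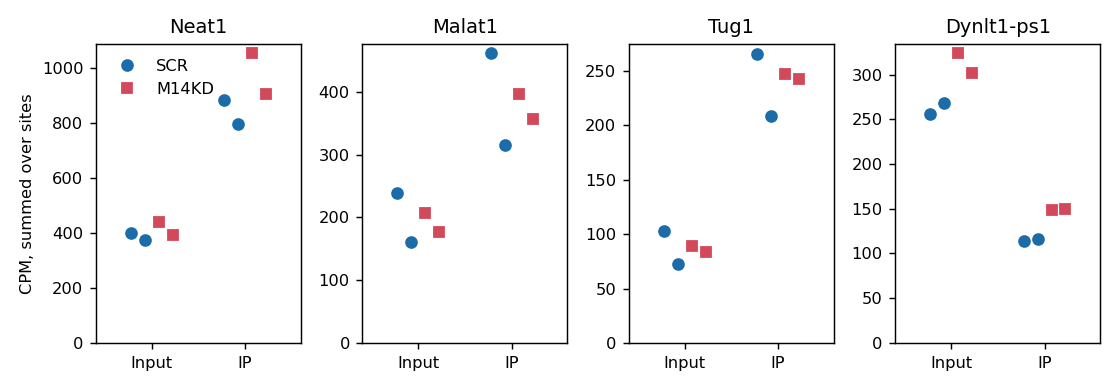
Level in CPM summed over the sites of Neat1, Malat1, Tug1 and Dynlt1-ps1 (y axis, from 0, a separate scale for each gene) in each Input and IP library, with circles for SCR and squares for M14KD. The M14KD points of Dynlt1-ps1 lie above its SCR points in both kinds of library, while those of Malat1 and Tug1 lie between their SCR points.

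The abundant nuclear lncRNAs did not pass in IP. Neat1 was at 0.24 (SE 0.09, adjusted p = 0.291, edgeR), with all 12 sites above 0 between 0.09 and 0.31. Without replicate 4, which leaves 1 M14KD library, it was at 0.33, and more genes were then called across the whole table. Malat1 was at -0.02 (SE 0.15, adjusted p = 0.958) and Tug1 at 0.07 (SE 0.11, adjusted p = 0.801). Neither Malat1 nor Tug1 kept its sign: Malat1 was at 0.27 without replicate 1 and 0.03 without replicate 4, and Tug1 at -0.10 without replicate 2. The genes of lowest p after Dynlt1-ps1 were Gm7733 at 0.66, C530044C16Rik at 1.37, 9330102E08Rik at -0.38 and Gm7327 at 0.35, with adjusted p from 0.206 to 0.219. C530044C16Rik had IP counts of only 9 and 12 in SCR and 30 and 22 in M14KD.

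In Input, 0 of 115 noncoding genes passed (edgeR), beside 0.0172% of all genes, while 13 had an unadjusted p under 0.05, beside 10.4%. DESeq2 gave an adjusted p for only 14 noncoding genes and called 0, beside 23 called of 1336 over all genes. At 283 sites 0 passed, beside 0.0929% of all sites, and 23 had an unadjusted p under 0.05, beside 8.69%. The lowest p was that of Zfp862-ps, with levels of 70.5 and 84.4 CPM in SCR and 53.4 and 55.5 in M14KD. Its log2 fold change was -0.50 (SE 0.14, adjusted p = 0.242, edgeR). It was -0.64 without replicate 1, which leaves 1 SCR library, and more genes were then called across the whole table. The next were Ube2d-ps at 0.55, Dynlt1-ps1 at 0.27, 9030622O22Rik at 0.89 and 4933405D12Rik at 0.61. The median over noncoding genes was 0.08, with 75 of 115 above 0, against 0.01 and 2995 of 5826 for all genes.

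The last comparison, of the IP over Input ratio between genotypes, sets the IP signal against the RNA level. No noncoding gene of 166 and no site of 399 passed (0 in edgeR and 0 in DESeq2, beside 0% of all genes and of all sites). An unadjusted p under 0.05 was found for 12 genes, beside 2.65%, and 24 sites, beside 3.72%. The median change was 0.04 log2 units per gene. The gene with the lowest p, 2610035D17Rik, had Input counts of 38 and 34 in SCR and 26 and 22 in M14KD, and IP counts of 395 and 364 in SCR and 436 and 417 in M14KD, a change of 0.77 (SE 0.26, adjusted p = 1.0, edgeR). Gm16001 was at -1.66, Gm34130 at -1.50 and E130317F20Rik at -1.51, each with Input counts of 14 or fewer, and Gm6969 was at -0.40.

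What these data could show was limited. In counts simulated from these libraries with noncoding sites changed, the test recovered 80.3% of 2-fold changes in IP (33348 sites), 38.6% in Input (30147 sites) and 25.4% in the change of the ratio (33356 sites). A 1.5-fold change of the ratio was recovered at 7.35% of sites. Per gene, with any gene of the table changed, 2-fold changes were recovered at 93.3% in IP (6385 genes), 74.6% in Input (5826 genes) and 71.4% in the change of the ratio (6382 genes), and 1.5-fold changes of the ratio at 43.3%. Noncoding genes were measured less precisely: the median SE of the change of the ratio was 0.38 for them, against 0.21 over all genes. Recovery among noncoding genes alone was not simulated, so these values may be too high for them. For the ratio of Neat1 the change was 0.12 (SE 0.13), for Malat1 0.02 (SE 0.23) and for Tug1 0.07 (SE 0.19), so a change within these errors was not detectable in these RNAs.

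**Figure D5:**
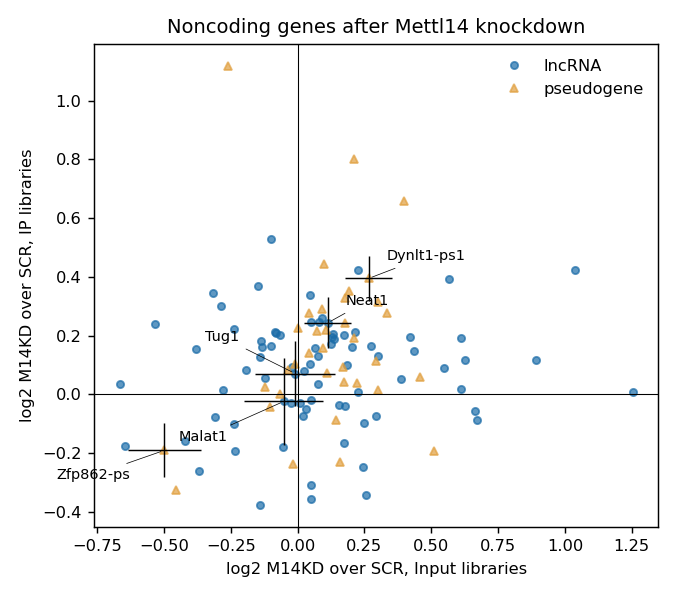
Log2 fold change of M14KD over SCR in Input (x axis) and in IP (y axis) for noncoding genes tested in both, circles for lncRNA genes and triangles for pseudogenes. Crosses are SE bars for the 5 genes labelled; no point passed the adjusted threshold on either axis.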

How the data were processed

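The authors deposited 1 table of raw read counts per site for 8 libraries, whole numbers with no normalization, per the file headers. The tools named in the submitters' processing notes are UMI-tools, cutadapt and STAR, with mm10 as the build. How sites were called, over what window and on which strand reads were counted, and where reads with several matches went is not stated in these sources, so a read may enter a gene's sum more than once.

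Sites were joined to RefSeq gene spans of GRCm38.p6. A site in several noncoding genes (14 sites) went to the one with the longest span. Members and lists were chosen with earlier results of these data known. Counts were tested with edgeR 4.0.16 in R 4.3.3 (filterByExpr with a minimum count of 10, TMM, quasi-likelihood F-test), over all sites or all genes. The IP and Input contrasts used the 4 libraries of that kind, and ratios used all 8. An SE is the size of the log2 fold change divided by the root of F. Tests were checked on simulated data. The text names the 12 genes with most sites, the 5 highest and 5 lowest ratios in SCR, the 5 lowest p per genotype contrast, called genes and sites, members of the fixed lists, and some chosen after their values were seen (C130036L24Rik, Gm34319, Lockd, Oip5os1, Gm13524, Gm11223). Alternatives were DESeq2 1.42.0, other scalings and filters, left-out replicates, distance from coding genes, thinned sites and the replicate block. The share tests for lncRNA and pseudogene sites were chosen after seeing the data. Deviations of IP and Input libraries of the same number correlated at 0.26 (SCR) and 0.16 (M14KD) over 23307 sites, and these numbers, from the labels, were taken as pairs.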

Additional observations from a re-analysis of the deposited data

How the results depend on the processing

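The ratios of named genes in SCR kept direction and call in 356 of their alternatives, reversed in 9, gained the call in 7 and lost it in 8; for the genotype contrasts these numbers were 191, 3, 3 and 2. Reversed ratios were Gm32330 (-0.00566 with DESeq2 size factors, -0.0216 at a mean count of at least 20, -0.0356 to 0.0627 with a replicate left out), C530044C16Rik (0.0409 with column totals, -1.40 to 0.33 with a replicate left out) and, with column totals, Brip1os (0.24), Gm7327 (0.46), Snhg11 (0.24) and Snhg20 (0.12). Reversed IP changes, with a replicate left out, were Malat1 (-0.28 to 0.27) and Tug1 (-0.10 to 0.25). Column totals gave 233 sites higher and 54 lower in SCR, 225 and 60 in M14KD, and 100 and 19 genes in SCR, 93 and 24 in M14KD. At least 5000 bases from coding genes, where fewer members remain, 149 of 246 sites in SCR (69 higher) and 146 in M14KD (68 higher) were called. That stood beside 67.4% and 66.9% of all sites tested. Of 96 genes there, 56 were called in SCR (29 higher) and 53 in M14KD (25 higher, 28 lower), beside 69.9% and 71% of all genes. With a replicate left out, ranges were 75 to 137 sites and 29 to 52 genes higher in M14KD, 0 to 19 sites and 0 to 3 genes called in IP, and 0 to 1 gene in Input. In such settings 1 library stands alone and is taken to vary like the others, so only effect sizes are given. In IP the log2 fold change of Gm5844 was 0.59 without replicate 1 and 0.48 without replicate 4, against 0.33 with all libraries. Without replicate 4 Gm10053 was at 0.44 and Neat1 at 0.33, against 0.31 and 0.24 with all libraries. In IP, 1 model of all 8 libraries called 2 noncoding sites, both in Dynlt1-ps1, beside 300 of 33356 over all sites. At 1 site per 100 bases 0 were called, beside 32 of 17750. DESeq2 called 1 noncoding gene, beside 45 of 3491 over all genes. The cause of these shifts was not tested.

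IP exceeded Input in share by 0.0101 percentage points far from coding genes (exact p = 0.6) and by 0.0335 without Neat1 (exact p = 0.171). With a replicate left out, where an exact p cannot go under 0.1, the difference was 0.0776 to 0.0888 points for noncoding, 0.169 to 0.181 for lncRNA and -0.0953 to -0.0915 for pseudogene sites. With the replicate block the differences were 0.0843, 0.175 and -0.0938 points, each with exact p = 0.125. In the edgeR fits the replicate block added the calls of Malat1, Gm7327 (adjusted p = 0.0451) and Snhg11 among the named ratios in SCR and changed no other call of a named gene there. Counts are lower at noncoding sites, and the median SE of the ratio in SCR was 0.28 there against 0.21 at all sites; column totals moved the median ratio of all sites from 0.06 to 0.77.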

Other observations

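A fixed list held protein partners of m6A on nuclear noncoding RNA, and most had sites in their own transcripts. Of 14 listed 11 were tested, and in SCR the IP over Input ratio was higher in 6 and lower in 3 (edgeR, adjusted p under 0.05), beside 35.2% and 34.7% of all genes. Rbm15 (log2 ratio 1.98) and Rbm15b (1.44), adaptors that bring the writer to RNAs such as Xist, were higher, as was Spen (0.69). Rbm15 had 1 site, with Input counts of 3 and 5 in SCR, and its log2 ratio in M14KD was 1.10. Mettl14 (-1.70), Hnrnpa2b1 (-1.66) and Hnrnpc (-0.625) were lower. Of 8 paraspeckle proteins, which meet Neat1 in that body, 3 were tested and all 3 were lower: Sfpq (-1.79), Tardbp (-0.57) and Matr3 (-0.52). With column totals as the scaling Sfpq (-1.07), Mettl14 (-0.98) and Hnrnpa2b1 (-0.95) stayed below 0, while Hnrnpc (0.09), Tardbp (0.15) and Matr3 (0.19) did not. None of these genes that was tested passed the threshold for M14KD over SCR in IP, in Input or in the change of the ratio. Of the listed m6A partners 3, 3 and 0 had an unadjusted p under 0.05 there, beside 14.1%, 10.4% and 2.65% of all genes. This list includes Mettl14, the knockdown target (log2 fold change -1.17 in IP and -0.95 in Input).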
